A study of Mus musculus with 2 samples.

Results

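The genes of the epidermal growth factor (EGF) family were examined in intestinal subepithelial myofibroblasts (ISEMFs), the contractile cells that lie under the crypt epithelium. The family was taken by gene symbol as 10 genes of the 37309 in the deposited table, namely the 8 ligands Hbegf, Ereg, Areg, Nrg1, Tgfa, Btc, Epgn and Egf and the 2 receptors Egfr and Erbb2. Supportive ISEMFs were grown from the small intestine of neonatal C57BL/6 mice (5 days old), and non-supportive ISEMFs from that of adult C57BL/6 mice (2 months old). Both were grown in the same medium, which held serum, insulin, transferrin and recombinant murine EGF. The populations are named for how well they support the growth of intestinal epithelium in co-culture without added R-spondin, a Wnt agonist. With 1 sequenced library of each, mouse age, separate isolation and population cannot be told apart, and no difference given here has a replicate check. The deposited names of the libraries also carry different numbers after a P, whose meaning is not given in the sources used here and whose part in the differences was not tested.

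EGF family ligands are made as membrane-anchored precursors, and metalloproteinases of the ADAM family cut them free at the cell surface. The released ligand binds a receptor of the ErbB family, the receptors pair, and the signal runs through RAS and ERK to a set of early response genes and to inhibitors that dampen it. Egf, Tgfa, Areg and Epgn bind the EGF receptor (Egfr), Hbegf, Btc and Ereg bind it and ErbB4, and neuregulins such as Nrg1 bind ErbB3 and ErbB4. ErbB2 has no known ligand of its own and acts as the partner of the other receptors. In the intestine, EGF receptor ligands drive the division of crypt cells, and EGF is a standard component of crypt culture medium.

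The non-supportive library held 49615497 reads on genes and the supportive library 50674472. Mitochondrially encoded genes took 7.85% of the former and 14.6% of the latter, and their part in the differences was not tested beyond the rescaling without them. Levels are given as RPKM, which scales a gene's reads by exon length and library size and so allows levels of different genes to be compared. Genes that reached RPKM 1 in at least 1 library are called expressed. Intervals are exact 95% intervals of the reads and cover counting error only. The myofibroblast markers Acta2 and Vim were abundant in both libraries, at RPKM 1410 and 407 in non-supportive and 908 and 325 in supportive ISEMFs. All 4 genes of the myofibroblast list were lower in supportive cells, where Tagln was at 206 against 360.1. Des was at 0.575 against 3.40, 5.92-fold lower (95% interval, 5.05 to 6.98). In the paper, ISEMFs stained only weakly for desmin and had negligible Des expression, which it counts as part of their anticipated phenotype. It also describes the non-supportive adult ISEMFs as low in desmin, without showing the data. Of the epithelial markers, Cdx1, Cdx2 and Chga had no read in either library, which allows up to 3 reads each, and Epcam had 5 reads in non-supportive cells and 0 in supportive cells. Cdh1 went the other way, with 18 reads in non-supportive and 159 in supportive cells (ratio 8.58, 95% interval 5.26 to 14.9), as did Muc2, with 3 and 27 reads (ratio 8.75, 2.69 to 45.0). The summed RPKM of the 8 epithelial markers was 0.123 in non-supportive cells and 7.72 in supportive cells, of which 7.22 was Lgr5. Mesothelial markers summed to 0.0432 and 0.127. Among them Upk3b had 0 reads in non-supportive and 21 in supportive cells, while Msln had 5 and 0 and Wt1 7 and 1. Endothelial markers summed to 0.205 and 0.00359, and neuronal and glial markers to 3.71 and 8.66. In the last list S100b was at RPKM 0.116 in non-supportive and 6.69 in supportive cells, and Tubb3 at 3.52 and 1.92. The 9 macrophage markers were all lower in supportive cells, where their summed RPKM was 6.95, against 124 in non-supportive cells. Tyrobp, Emr1, Itgam and Ptprc had no read in the supportive library, against 1174, 622, 1070 and 879 reads in the non-supportive one. The rest had supportive reads. Lyz2 made RPKM 6.31 of the supportive sum, with 592 reads against 6629. Cd68, Csf1r, Cd14 and Fcer1g had 51, 25, 10 and 3 supportive reads, against 715, 343, 108 and 387. In these bulk libraries, fewer cells of a type and less RNA per cell cannot be told apart.

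Supportive ISEMFs held less mRNA of the main EGF receptor ligands and of the EGF receptor than non-supportive ISEMFs, while Erbb2 was within 2-fold. Of the 10 members, 4 (Hbegf, Ereg, Egfr and Erbb2) were expressed, all of them in both libraries, and the other 6 stayed under RPKM 1 in both. Of the 4 expressed members, Hbegf, Ereg and Egfr (3 genes) were lower in supportive ISEMFs by 2-fold or more, and 0 were higher by as much. Over all 10086 expressed genes, 9.27% were lower and 9.01% were higher by 2-fold or more, counted on the log2 scale with 0.1 added to each RPKM. The median log2 ratio was -1.60 over the 4 members and -0.07 over the 10086 expressed genes.

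Hbegf encodes heparin-binding EGF-like growth factor, a ligand that is held near cells by heparan sulfate. The gene occupies bases 36664583 to 36675459 of the minus strand of chromosome 18 (mm9). Non-supportive ISEMFs gave 9730 reads (RPKM 59.0) and supportive ISEMFs 2534 reads (RPKM 14.9). Hbegf was the most abundant ligand of the family in both, at rank 344 and rank 1556 of the 22379 protein-coding genes. Its RPKM was 3.95-fold lower in supportive ISEMFs (95% interval, 3.78 to 4.13), a log2 ratio of -1.98. Of the 10086 expressed genes, 3.32% had a lower log2 ratio.

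Ereg encodes epiregulin, a ligand that was next to Hbegf in level in both libraries. Non-supportive ISEMFs gave 6720 Ereg reads (RPKM 23.4) and supportive ISEMFs 1796 (RPKM 6.08). Its RPKM was 3.85-fold lower in the supportive library (95% interval, 3.65 to 4.06), a log2 ratio of -1.93. The intervals of the Hbegf and Ereg ratios overlapped. Within a library Hbegf was 2.52 times the level of Ereg in non-supportive and 2.46 times in supportive ISEMFs.

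**Figure D1:**
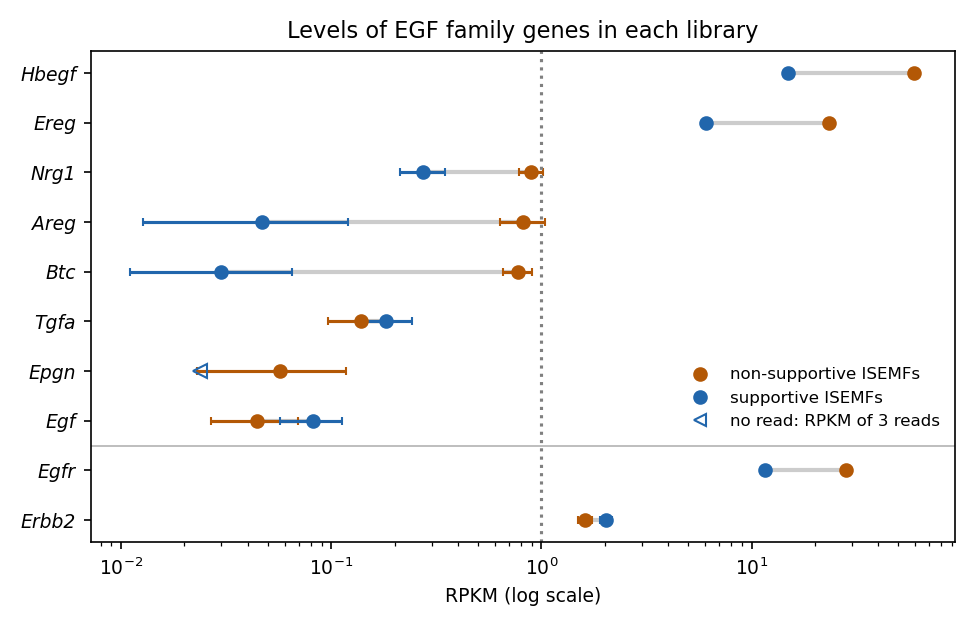
RPKM (log scale) of the 8 ligands and, under the line, the 2 receptors in the library of non-supportive ISEMFs (orange) and of supportive ISEMFs (blue). Bars are 95% Poisson intervals of the reads, hidden by the points where narrow, the dotted line marks an RPKM of 1, and the open triangle is the RPKM of 3 reads for Epgn, which had no supportive read. Hbegf, Ereg and Egfr sit far to the right of the other 6 ligands and are lower in the supportive library, while Erbb2 is at 1.62 and 2.03.

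Hbegf and Ereg together made 96.8% of the summed RPKM of the 8 ligands in non-supportive and 97.2% in supportive ISEMFs. Hbegf alone made 69.3% and 69.1%, and Ereg 27.5% and 28.1%. The sum itself was 85.2 in non-supportive and 21.6 in supportive ISEMFs, which is 3.94-fold lower. Among the remaining ligands, which made 2.72 and 0.614 of that sum, the order changed between the libraries.

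Nrg1 encodes neuregulin 1, a ligand of ErbB3 and ErbB4 with many isoforms, which reads counted per gene do not separate. It occupies bases 32928500 to 33119581 of the minus strand of chromosome 8 (mm9). Non-supportive ISEMFs gave 216 Nrg1 reads (RPKM 0.894) and supportive ISEMFs 68 (RPKM 0.274). Its RPKM was 3.27-fold lower in supportive ISEMFs (95% interval, 2.48 to 4.36). Tgfa, the gene of transforming growth factor alpha, went the other way in level, with 36 reads (RPKM 0.138) in non-supportive against 49 (RPKM 0.182) in supportive ISEMFs. The Tgfa ratio of 1.32 had an interval of 0.843 to 2.09, so a difference was not detectable at this depth. The gene occupies bases 86145420 to 86225151 of the plus strand of chromosome 6. Egf, the ligand that was also supplied in the medium, gave 19 reads (RPKM 0.0443) in non-supportive cells and 36 (RPKM 0.0815) in supportive cells. Its ratio of 1.84 had an interval of 1.03 to 3.40. Egf occupies bases 129380493 to 129458240 of the minus strand of chromosome 3.

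Ereg shares a stretch of chromosome 5 with Epgn, Areg and Btc, and these neighbours were also lower in the supportive library. Areg encodes amphiregulin, Btc betacellulin and Epgn epigen. In mm9 the stretch runs from the start of Epgn at 91456490 to the end of Btc at 91831939 and spans 375 kb. Epgn (91456490 to 91464241), Ereg (91503643 to 91522675) and Areg (91568641 to 91577458) lie on the plus strand in that order, and Btc (91786287 to 91831939) on the minus strand. The annotation holds 6 genes there, of which these 4 code for proteins. The other 2, a U6 small nuclear RNA and the pseudogene Gm15710, had 1 read between them.

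Btc had 150 reads (RPKM 0.773) in non-supportive ISEMFs and 6 (RPKM 0.0300) in supportive ISEMFs. It was 25.7-fold lower in the supportive library (95% interval, 11.5 to 71.2). Areg had 68 reads (RPKM 0.817) in non-supportive and 4 (RPKM 0.0467) in supportive ISEMFs, 17.5-fold lower (95% interval, 6.53 to 66.0). Epgn had 7 reads (RPKM 0.0573) against 0, and was at least 2.40-fold lower when the supportive library was set at 3 reads, while the counting interval started at 1.48-fold. The intervals of Btc and Areg lay wholly beyond that of Ereg, so their ratios in these libraries were larger than counting error allows for an equal ratio. Neither gene reached RPKM 1, and their fold rests on few supportive reads. The macrophage markers named above moved in the same direction as these ligands, Hbegf, Nrg1 and Egfr, and their part in the differences was not tested.

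Promoter sequence is shown for Areg and Btc, the neighbours with the largest fold differences, and for the receptor gene Egfr, the expressed member that was lower by 2-fold or more and has an entry in the RefSeq promoter table of GRCm38.p6. Entries were matched for 7 of the 10 members, and Hbegf, Ereg and Nrg1 had none. Each sequence is the 250 bases before the transcription start on the gene's strand, 5′ to 3′, placed in mm9 at the position given, and capitals mark letters that match a searched motif on either strand. The start is that of RefSeq. For Areg and Btc it lies upstream of the gene start at the coordinates given above, and distances are counted from the RefSeq start. The motifs were the CRE (TGACGTCA), the TATA box (TATAAA), the GC box (GGGCGG), the CCAAT box (CCAAT), the AP-1 site (TGANTCA) and the EGR site (GCGNGGGCG).
Areg, chr5:91568375-91568624, plus strand: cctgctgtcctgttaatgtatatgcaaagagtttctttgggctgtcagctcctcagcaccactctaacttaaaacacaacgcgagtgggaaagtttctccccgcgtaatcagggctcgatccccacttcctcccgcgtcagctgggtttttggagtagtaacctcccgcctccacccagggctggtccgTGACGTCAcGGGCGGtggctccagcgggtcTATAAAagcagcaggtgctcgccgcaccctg
Btc, chr5:91832021-91832270, minus strand: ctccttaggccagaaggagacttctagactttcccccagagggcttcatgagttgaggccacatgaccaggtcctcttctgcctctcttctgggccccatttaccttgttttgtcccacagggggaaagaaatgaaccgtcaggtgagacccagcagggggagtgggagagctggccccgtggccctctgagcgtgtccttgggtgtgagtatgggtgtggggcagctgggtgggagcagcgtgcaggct
Egfr, chr11:16651956-16652205, plus strand: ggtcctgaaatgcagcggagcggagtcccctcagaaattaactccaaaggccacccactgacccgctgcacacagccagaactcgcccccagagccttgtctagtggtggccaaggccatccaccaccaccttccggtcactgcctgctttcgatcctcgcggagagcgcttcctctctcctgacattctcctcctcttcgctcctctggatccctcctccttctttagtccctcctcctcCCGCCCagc

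The Areg sequence held a CRE from 61 to 54 bases before the start, a GC box from 52 to 47 and a TATA box from 31 to 26 bases before it. Of 32851 promoters of the same length in the table, 1.55% held this CRE, 12.4% the TATA box and 32.7% the GC box. The Egfr sequence held a GC box on the opposite strand, from 9 to 4 bases before the start, and no TATA box. The Btc sequence held none of the 6 motifs, of which the CCAAT box was in 33.9%, the AP-1 site in 6.75% and the EGR site in 4.70% of the promoters. The G and C content was 57.2% for Areg, 59.6% for Btc and 60.8% for Egfr, where the middle 50% of promoters lay between 45.2% and 61.2%. These matches describe the letters and are not evidence of binding.

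**Figure D2:**
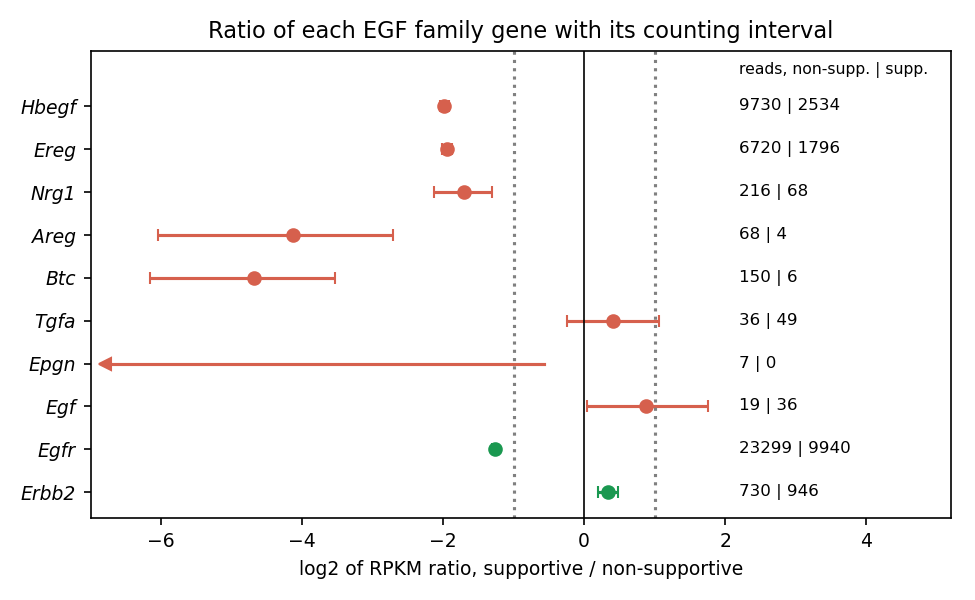
Log2 of the RPKM ratio, supportive over non-supportive ISEMFs with nothing added, for the 8 ligands (red) and the 2 receptors (green), with exact 95% counting intervals and the reads of each library at the right. Dotted lines mark 2-fold differences, and the arrow for Epgn stands for a ratio with no lower limit. Of the ligands, 6 lie to the left of 0 and Tgfa and Egf to the right, with Btc at 25.7-fold and Areg at 17.5-fold lower.

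The order of the ligands by RPKM in the non-supportive library was Hbegf, Ereg, Nrg1, Areg, Btc, Tgfa, Epgn and Egf. The counting intervals of the neighbours Nrg1, Areg and Btc overlapped, as did those of Tgfa and Epgn and of Epgn and Egf. In the supportive library the order was Hbegf, Ereg, Nrg1, Tgfa, Egf, Areg, Btc and Epgn. There the neighbours Nrg1 and Tgfa overlapped, and so did each pair from Egf to Epgn. Areg and Btc were above Tgfa beyond counting error in the non-supportive library and below it in the supportive one.

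Egfr encodes the receptor that most of these ligands share. The gene occupies bases 16652206 to 16818161 of the plus strand of chromosome 11 (mm9), and its transcripts together cover 30 blocks of exon sequence. Non-supportive ISEMFs gave 23299 Egfr reads (RPKM 28.0) and supportive ISEMFs 9940 (RPKM 11.6). Its RPKM was 2.41-fold lower in the supportive library (95% interval, 2.36 to 2.47), a log2 ratio of -1.26 that 6.53% of expressed genes were below. The interval lay above 2-fold but short of those of Hbegf and Ereg. The summed ligand RPKM was 3.04 times that of Egfr in the non-supportive and 1.86 times in the supportive library.

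Erbb2, the receptor without a ligand of its own, occupies bases 98273784 to 98299030 of the same strand. Non-supportive ISEMFs gave 730 Erbb2 reads (RPKM 1.62) and supportive ISEMFs 946 (RPKM 2.03). Its ratio was 1.26 (95% interval, 1.14 to 1.39), within 2-fold. Egfr was 17.4 times the level of Erbb2 in non-supportive ISEMFs and 5.71 times in supportive ISEMFs, a comparison within each library that does not depend on library size. The receptors that bind neuregulins, Erbb3 and Erbb4, stayed under RPKM 1. Erbb3 had 3 reads (RPKM 0.00718) in non-supportive and 79 (RPKM 0.184) in supportive ISEMFs, a ratio of 25.6 (95% interval, 8.44 to 127). Erbb4 had 1 read and 0 reads, and the neuregulin genes Nrg2 and Nrg3 had none, which at 3 reads allows RPKM 0.00972 for Nrg2 and 0.00567 for Nrg3 in the non-supportive library. Nrg4, also a neuregulin gene, had 80 reads (RPKM 0.129) against 57 (RPKM 0.0893), 1.44-fold lower (95% interval, 1.02 to 2.07).

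**Figure D3:**
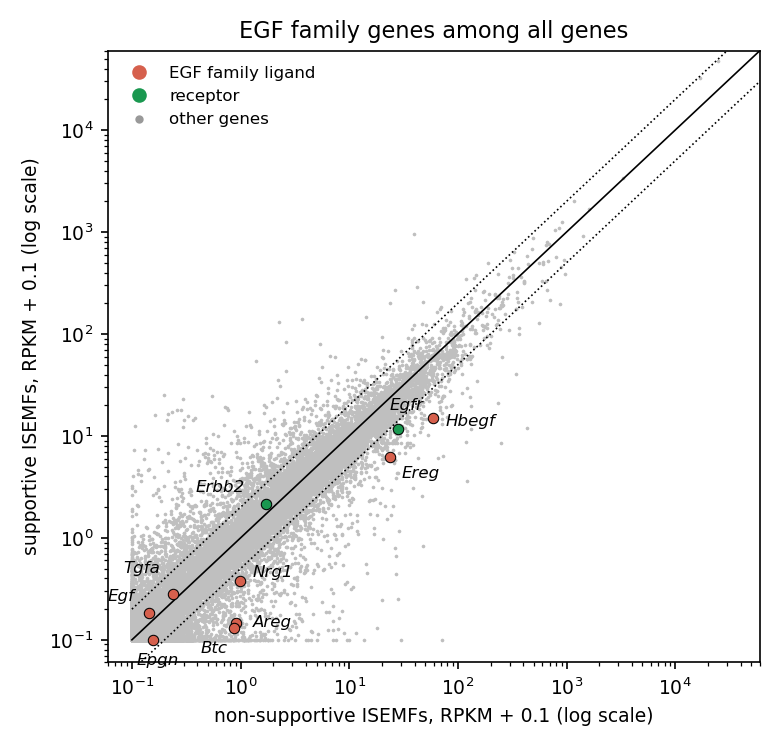
RPKM + 0.1 of every gene in the table in non-supportive ISEMFs (horizontal, log scale) and supportive ISEMFs (vertical, log scale), with ligands in red, receptors in green and other genes in grey. The solid line marks equal levels and the dotted lines 2-fold differences. Hbegf, Ereg, Egfr, Nrg1, Areg and Btc fall under the lower dotted line, and Erbb2, Tgfa and Egf lie just above the solid line.

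Of the 11 genes of the list of sheddases and their partners, 8 were expressed. Adam17, the main sheddase of most EGF receptor ligands, was level, at RPKM 5.35 in non-supportive cells and 5.85 in supportive cells. Adam10, which cuts Egf and Btc, was at 28.6 and 22.4. Of the 8 expressed genes, 3 (37.5%) were lower in supportive ISEMFs by 2-fold or more and 1 (12.5%), the inhibitor gene Timp3, was higher. The shares over all expressed genes were 9.27% and 9.01%. The median log2 ratio of the 8 was -0.35. Adam19 was at RPKM 72.7 in non-supportive and 24.3 in supportive cells, Adam12, which can shed Hbegf, at 5.66 and 1.85, and Adam9 at 70.0 and 34.5. The Adam9 difference of 2.03-fold (95% interval, 1.99 to 2.07) was at the threshold and fell under it with every other scaling of the libraries that was tried. Timp3, an inhibitor of Adam17 held in the matrix, was 2.41-fold higher in supportive cells, at 123 against 51.0. The 3 genes that were not expressed, named after their values were seen, were the Adam17 partners Rhbdf1 (RPKM 0.310 in non-supportive and 0.669 in supportive ISEMFs) and Rhbdf2 (0.148 and 0.313) and the protease gene Adam8 (0.917 and 0.0354).

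All 16 adaptor and RAS-ERK genes of the cascade behind the receptor were expressed. Of these, 15 were within 2-fold, as were 8242 of all 10086 expressed genes, and the median log2 ratio of the 16 was -0.18. Nras, 1 of the RAS genes, was 2.11-fold lower in supportive ISEMFs, at RPKM 16.1 against 33.9. Its difference fell under 2-fold when the RPKM were rescaled to a median log2 ratio of 0 and when mitochondrially encoded genes were left out of the library sizes. Sos1, which loads RAS with GTP, was level, at 12.9 in non-supportive and 13.4 in supportive cells. Map2k1, the gene of the kinase MEK1, was at 22.9 and 12.3. Among the 7 other expressed effectors, 2 (28.6%) were lower in supportive ISEMFs by 2-fold or more and 0 were higher. Over all expressed genes the shares were 9.27% and 9.01%. The kinase gene Src was 2.81-fold lower in supportive ISEMFs, at 0.509 against 1.43. Pik3cb, a catalytic subunit of PI3 kinase, was 2.47-fold lower, at 2.05 against 5.07. In supportive ISEMFs, Pik3r1, Stat3 and Pik3ca were at 24.5, 11.5 and 5.49, against 12.9, 7.83 and 6.23 in non-supportive ISEMFs. Pik3r1, which encodes the regulatory subunit of PI3 kinase, and the adaptor gene Gab1, named after its values were seen, passed 2-fold higher in 1 alternative, with mitochondrially encoded genes left out of the library sizes.

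Feedback inhibitors of the pathway went both ways. Of the 13 expressed inhibitors, 3 (23.1%) were lower in supportive ISEMFs by 2-fold or more and 2 (15.4%) were higher, with a median log2 ratio of -0.26. Over all expressed genes, 9.27% were lower and 9.01% higher by as much. The phosphatase genes Dusp4 (RPKM 10.8 in supportive against 44.9 in non-supportive ISEMFs) and Dusp5 (1.21 against 7.55) were lower, as was Spry4, a Sprouty inhibitor of RAS signaling, at 5.67 against 23.0. Spry1, of the same family, was 5.95-fold higher (95% interval, 5.40 to 6.56), at 14.3 against 2.41. Lrig3, a relative of the EGF receptor inhibitor Lrig1, was 5.76-fold higher, with 2496 reads against 421. Spred1, another inhibitor of RAS signaling, was at 21.4 against 25.7.

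ERK response genes also went both ways, 2 (25%) higher and 2 (25%) lower of the 8 that were expressed. The shares over all expressed genes were 9.01% and 9.27%. The early response genes Egr1 and Fos were higher in supportive ISEMFs, in contrast to the ligands. Egr1 gave 44716 reads (RPKM 202) in supportive cells against 5088 (RPKM 23.6), 8.54-fold higher, and Fos 2051 reads (RPKM 7.57) against 112 (RPKM 0.425), 17.8-fold higher. Ier3 was lower, at RPKM 17.3 in supportive against 38.9 in non-supportive ISEMFs, and so was the ETS factor gene Etv4, at 0.374 against 1.23. Ccnd1, the gene of cyclin D1, was at 175 against 146, and Phlda1 at 24.8 against 46.8. The calls of Etv4, Src, Pik3cb and Adam9 were lost with a pseudocount of 1.

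**Figure D4:**
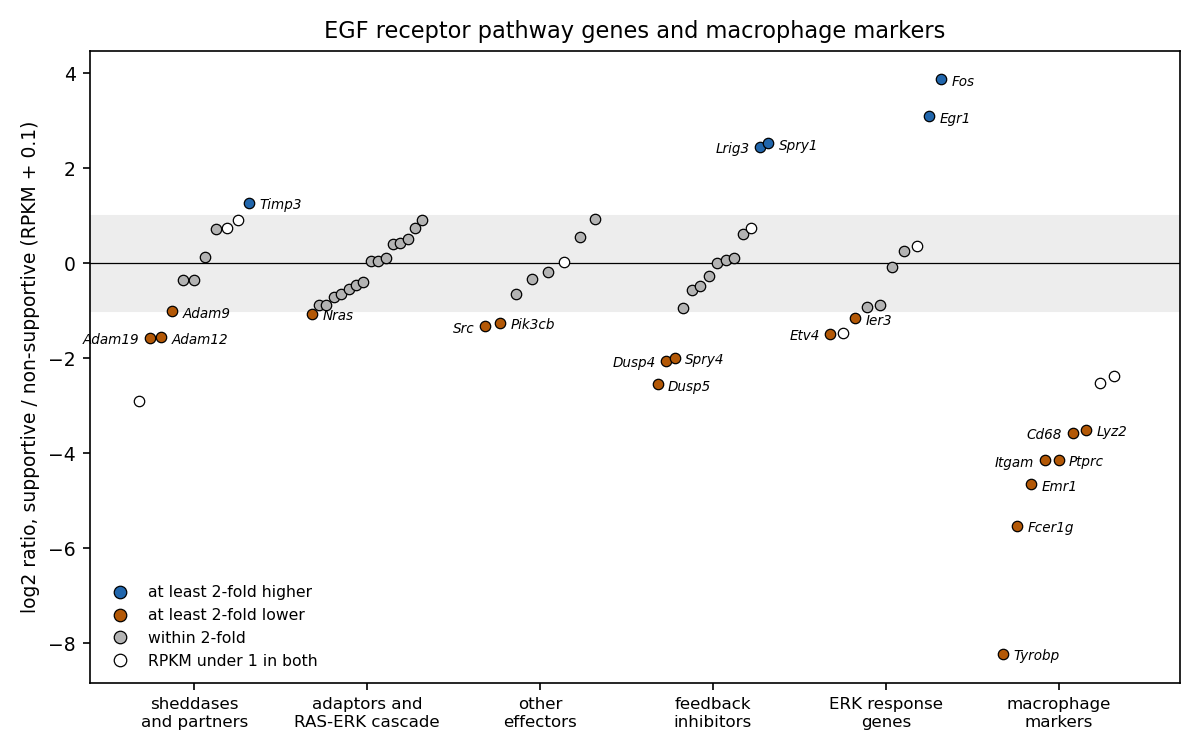
Log2 ratio, supportive over non-supportive (RPKM + 0.1), of each gene of 5 lists of the EGF receptor pathway and of the macrophage markers. Blue and orange points are at least 2-fold higher or lower in the supportive library, grey points are within 2-fold (shaded), and open points stayed under RPKM 1 in both libraries. Nearly all adaptor and RAS-ERK genes lie in the shaded band, the inhibitors and ERK response genes lie on both sides of it, and the 7 expressed macrophage markers lie under it.

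Of the 64 genes of these 5 lists and the other family genes, 52 were expressed. Among these, 11 (21.2%) were lower in supportive ISEMFs by 2-fold or more and 5 (9.62%) were higher, where the shares over all 10086 expressed genes were 9.27% and 9.01%. Their median log2 ratio was -0.34. At the 2-fold threshold, the share of higher genes was near that of all genes, and the share of lower genes was above it. With a 4-fold threshold this did not hold. There 2 of the 52 were lower and 4 were higher, where 332 and 327 of all 10086 expressed genes were. At 2-fold with mitochondrially encoded genes left out of the library sizes, 9 of the 52 were lower and 7 higher. Of all 10440 genes expressed in that setting, 840 were lower and 1111 higher.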

How the data were processed

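Single-end reads of 50 bases from 1 TruSeq RNA library of each population were aligned by the authors to mm9 with TopHat (TopHat2 2.0.4 in the submitters' processing notes) using Ensembl genes, allowing 2 mismatches and unique hits only. The deposited counts are whole reads per gene from HTSeq (0.5.4p3), without normalization and without reads shared by genes. The RPKM values deposited by the authors divide these counts by the union of the exons and by the library size (69449374 and 71463423 reads). The authors' own log2 ratio and DESeq p-values were not used, nor was a shorter table of Wnt pathway genes.

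The members and gene lists were chosen with earlier results of these data known. Named genes are all members, other family genes and, for each list, up to 6 genes, those past 2-fold first and then the most abundant. 1 gene that this rule names is not reported here. 1 list gene, Hras, is under its older symbol Hras1 in the table. Expressed genes reached RPKM 1 in at least 1 library, and calls needed a 2-fold difference with 0.1 added. Intervals of a ratio are Clopper-Pearson intervals of the share of reads, and those of a level are Poisson intervals. A library without reads was set at 3 reads. With 1 library per population no test between populations was made and no p-value is given, in place of the DESeq test of the paper. Alternatives were other pseudocounts, minimum levels, thresholds and scalings, with TMM factors from edgeR 4.0.16 and size factors from DESeq2 1.42.0.

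Coordinates are from GENCODE vM1 (mm9), which holds all 37309 identifiers. The exon length in the table equals that annotation's for 6 of the 10 members, so levels of Egf, Egfr, Erbb2 and Nrg1 depend on which gene models were used. Exons of Erbb2 and Nrg1 overlap an exon of a gene on the other strand, and whether counting used strand is not given in the sources used here. The ligand proteins were not compared here. The interval and the 2-fold calls were tested on simulated reads with known folds. The simulation held counting error only, so it says nothing about variation between cultures or libraries. The software was R 4.3.3, matplotlib 3.10.9, scipy 1.17.1, pandas 2.3.3, numpy 2.4.6 and Python 3.11.15.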

Additional observations from a re-analysis of the deposited data

How the results depend on the processing

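With 1 library per population no replicate could be left out, and no paired analysis was possible because each population has 1 library. Hbegf, Ereg and Egfr were at least 2-fold lower in supportive ISEMFs under all alternatives that kept the 2-fold threshold. With a 4-fold threshold 0 members were lower, where 332 of all 10086 expressed genes were. With no minimum RPKM 6 members were lower, Areg, Btc and Nrg1 with them, where 1885 of all 37309 genes were. The number of members at least 2-fold higher was 0 under every alternative. Over 6 alternatives the log2 ratio ranged, main value included, from -1.98 to -1.87 for Hbegf, -1.94 to -1.79 for Ereg, -1.27 to -1.15 for Egfr and 0.21 to 0.42 for Erbb2. The ranges of the members under an RPKM of 1, added after the data were seen, were -5.86 to -0.08 for Epgn, -4.64 to -0.78 for Btc, -4.10 to -0.80 for Areg, -1.71 to -0.57 for Nrg1, 0.05 to 0.87 for Egf and 0.06 to 0.40 for Tgfa, and they depended on the pseudocount. The number of pathway genes at least 2-fold lower went from 11 to 7 with a pseudocount of 1 and to 2 with a 4-fold threshold. The number of pathway genes higher went from 5 to 4 with the 4-fold threshold and to 6 with no minimum RPKM. Leaving mitochondrially encoded genes out of the library sizes made it 7, with 9 pathway genes lower. The number of genes of all types with a 2-fold difference, 1844, went to 1199 with a pseudocount of 1, 878 with a minimum RPKM of 5, 3660 with no minimum and 659 with a 4-fold threshold. Leaving mitochondrially encoded genes out of the library sizes moved the median log2 ratio of expressed genes from -0.07 to 0.03. Depth limits Tgfa, Egf and Epgn, which had at most 49 reads in a library.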
